A study of Mus musculus with 24 samples.

Results

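The genes Rtl3, Aff3, Klhl30, P2rx3, Cfap52, Angpt4, Mss51 and Tgm5 were followed across expression arrays of C2C12 cells. This mouse myoblast line fuses into myotubes when growth medium (GM) is replaced by differentiation medium (DM). They were taken because their signals differed strongly between cells with a short hairpin RNA (shRNA) against p68 and vector cells on the arrays of the MB design, with no stated threshold; they are 8 of 18193 genes named in the series, and 9607 of those are named on the MB design. The MB design holds 11 probe sets for them and the MA design holds 2, 1 each for P2rx3 and Angpt4. The 4 groups of each design were C2C12 cells with the p68 shRNA in the pSuperR vector in DM, with the empty vector in DM, with the p68 shRNA in GM and with the empty vector in GM, and each had 3 arrays of total RNA. The vectors were introduced by transduction per the labels, which say neither whether the cells were pools or single clones nor whether replicates were separate cultures, so every p-value below reflects array-to-array spread alone, part or all of it possibly technical.

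The p68 protein, encoded by Ddx5, is a DEAD-box RNA helicase that also acts as a transcriptional coactivator, and in myoblasts it is known as a partner of MyoD, the basic helix-loop-helix factor that switches on the muscle programme from E-box motifs. The genes followed here act in different places. Angpt4 is a secreted ligand of the Tie2 receptor, Tgm5 is a transglutaminase that cross-links proteins of the outer epidermis, and P2rx3 is a subunit of ATP-gated cation channels known from sensory neurons. Cfap52 is a WD-repeat protein of the axoneme of motile cilia and flagella, Klhl30 belongs to the kelch-like proteins, many of which are adaptors of ubiquitin ligases built on cullin 3, and Mss51 is a MYND zinc finger protein found in skeletal muscle mitochondria. Aff3 is a nuclear protein of the AF4 family, whose members work in transcription elongation, and Rtl3 is an X-linked gene derived from the gag part of a retrotransposon.

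The RefSeq promoter table of GRCm38.p6 held 6 of the 8 genes, Klhl30 and P2rx3 having no entry. The 250 bases before the start are shown for Angpt4 and Tgm5, which had the same pattern over the groups, and for Cfap52, whose high signals lay in another group; capitals mark the E-box letters CANNTG, which read the same on both strands. The Angpt4 promoter lies on the plus strand at chr2:151910957-151911206, the Tgm5 promoter on the minus strand at chr2:121085842-121086091 and the Cfap52 promoter on the minus strand at chr11:67965643-67965892.
Angpt4: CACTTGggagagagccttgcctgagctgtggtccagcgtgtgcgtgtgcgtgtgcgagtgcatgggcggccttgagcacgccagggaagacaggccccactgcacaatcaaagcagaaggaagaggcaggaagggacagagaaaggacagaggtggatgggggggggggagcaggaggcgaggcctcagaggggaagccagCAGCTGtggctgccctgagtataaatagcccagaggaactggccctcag
Tgm5: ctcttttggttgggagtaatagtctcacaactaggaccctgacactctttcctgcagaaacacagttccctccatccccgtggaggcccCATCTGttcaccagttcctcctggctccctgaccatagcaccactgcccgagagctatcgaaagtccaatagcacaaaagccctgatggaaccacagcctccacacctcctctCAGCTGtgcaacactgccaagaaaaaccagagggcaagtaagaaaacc
Cfap52: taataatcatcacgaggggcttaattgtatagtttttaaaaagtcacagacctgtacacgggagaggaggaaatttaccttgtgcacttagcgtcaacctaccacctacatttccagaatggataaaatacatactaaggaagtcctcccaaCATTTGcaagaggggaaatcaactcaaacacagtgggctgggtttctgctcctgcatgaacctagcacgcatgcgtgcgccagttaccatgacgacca
The form CAGCTG, which is one of the CANNTG words, begins 49 bases before the start of Angpt4 and 48 bases before that of Tgm5. It was found in 2 of the 6 promoters and in 13% of the 32851 promoters of the same length in the table. Any CANNTG was found in 3 of the 6, Angpt4, Tgm5 and Cfap52, and in 66.2% of all. The words CATTCC (either strand), known as the core of TEAD sites, and the MEF2 motif were found in 0 of the 6, against 12.6% and 0.508% of all promoters. These are matches of letters in a window and not measured binding.

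Each value below is the deposited MAS5 signal, a linear intensity scaled by array, and arrays are listed as replicates 1, 2 and 3. Log2 changes are differences of log2(signal + 15), fitted with limma, ± their standard error (SE, 3 arrays a group). The arrays of the MB design correlated with their own group at a mean r of 0.825 to 0.886, lowest in DM vector replicate 2, which also had 9.03% of its signals under 15 against 15.62 to 19.95% in the other MB arrays. The 3' over 5' control ratio (log2) was 0.0990 to 0.144 in GM vector arrays and -0.0668 to 0.0335 in all other MB arrays, and its part in the results was not tested. The MB annotation gives no probe set to Ddx5 alone. On the MA arrays the brightest Ddx5 probe set read 373, 302 and 302 in DM shRNA cells, against 673, 541 and 408 in DM vector cells. In GM it read 351, 388 and 376 in shRNA cells, against 483, 420.4 and 489 in vector cells. It fell by 0.68 ± 0.15 in DM (limma, adjusted p = 0.00677), while in GM the difference was -0.31 (adjusted p = 0.287). Its groups did not overlap in either medium, but 12.3% of all tested MA probe sets were lower without overlap in DM and 12.5% in GM. This probe set was the 1 of 6 Ddx5 probe sets on MA that passed in DM. The 5 others differed by -0.48 to 0.01 there with overlapping groups and did not pass (adjusted p of 0.0869 to 0.999). As to the cell type, 15 of 19 tested skeletal muscle differentiation genes on MB rose in DM over GM in vector cells and 13 of 19 in shRNA cells, where 4.21% and 2.27% of all tested probe sets rose. Their medians were 3.35 and 2.98, beside -0.01 and 0.02 over all probe sets.

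**Figure D1:**
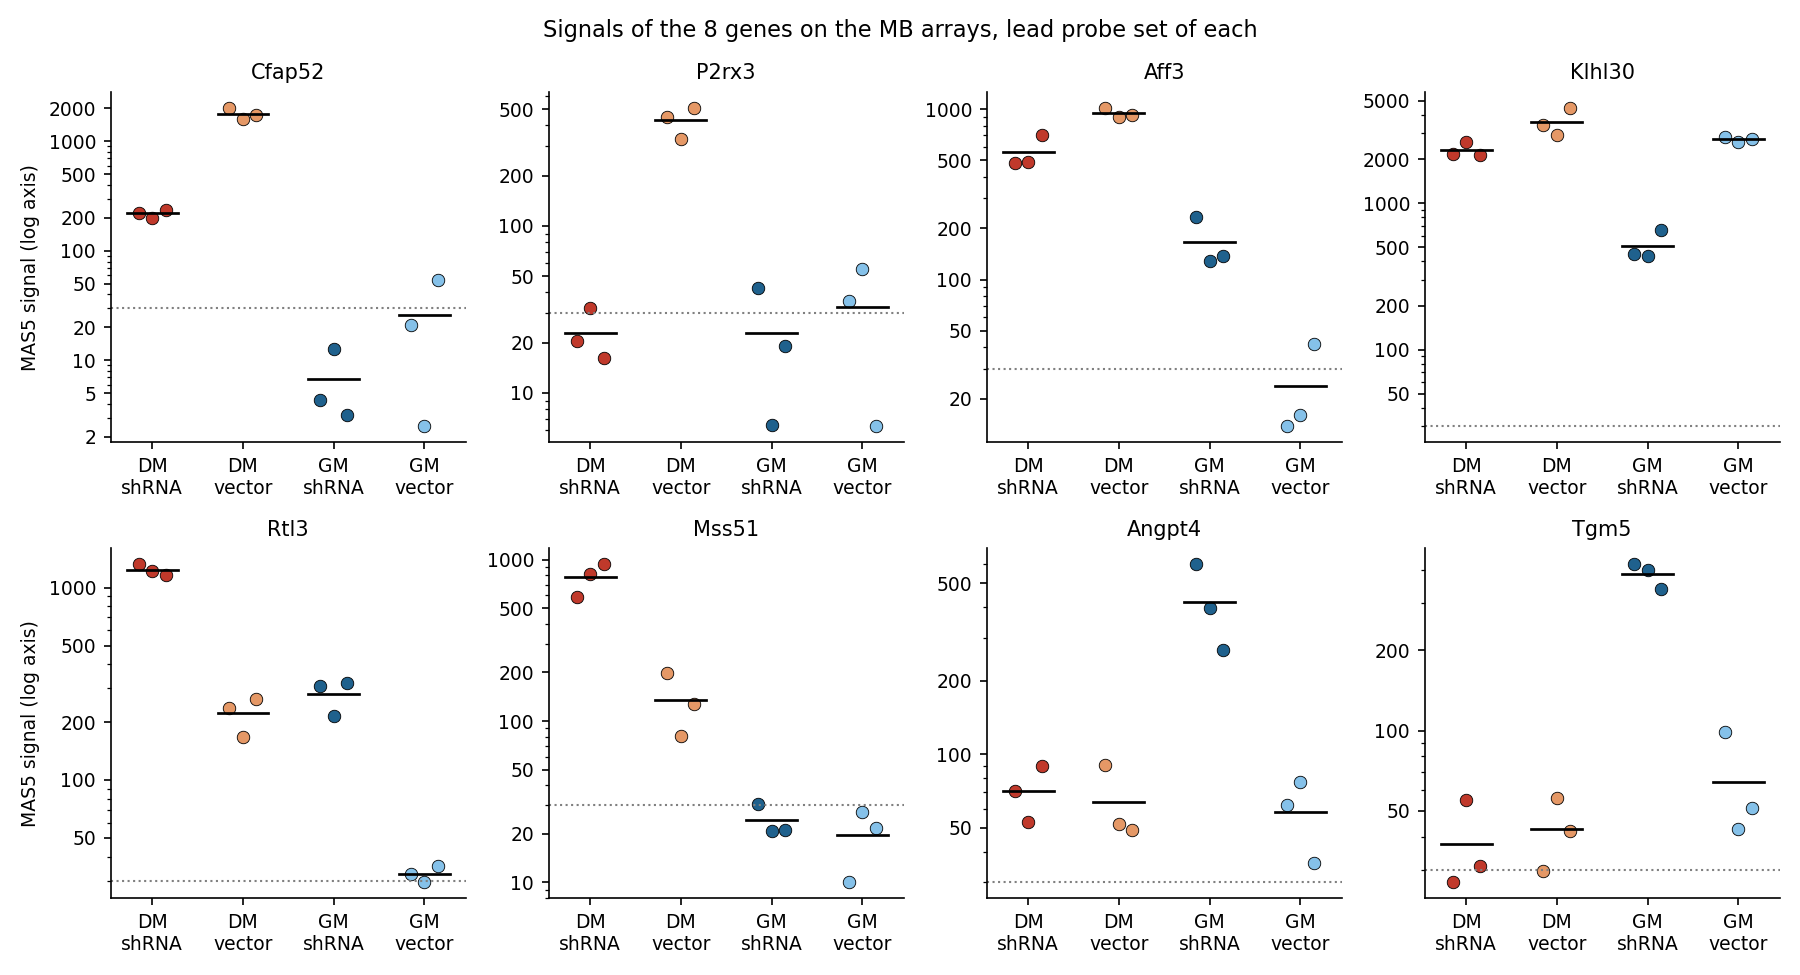
MAS5 signal (log axis) of the brightest MB probe set of each of the 8 genes, 1 point per array and a bar at each group's mean, with a dotted line at a signal of 30. Angpt4 and Tgm5 stand high in the 3 GM shRNA arrays, P2rx3 and Cfap52 in the 3 DM vector arrays, and Mss51 and Rtl3 in the 3 DM shRNA arrays, while Klhl30 is lowest in the 3 GM shRNA arrays.

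Taking shRNA against vector on the MB arrays, which is what the genes were chosen by, 4 of the 8 had a log2 change of at least 2 in size in DM (Rtl3, Mss51, P2rx3 and Cfap52) and 5 had one in GM (Rtl3, Aff3, Klhl30, Angpt4 and Tgm5). Over all 19303 tested probe sets, 0.130% in DM and 0.0932% in GM were that large. Rtl3 was the one gene of the 8 with such a change in both media. These counts and all shRNA values from MB arrays below restate the choice and are given without a test. The RNA came from whole cultures, so fewer cells of a kind and less RNA per cell cannot be told apart.

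The ligand Angpt4 had its high signals in GM shRNA cells. Its MB probe set read 70.9, 52.8 and 89.6 in DM shRNA cells, against 90.7, 52.0 and 49.0 in DM vector cells. Growth medium gave 601, 395 and 268 in shRNA cells, against 62.2, 77.1 and 35.9 in vector cells. The 3 GM shRNA arrays were above all 9 others, and the remaining 3 groups overlapped in order. The shRNA difference was 0.14 in DM and 2.54 in GM (SE 0.39), where it was the 3rd highest of all probe sets.

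Tgm5, the epidermal cross-linking enzyme, had the same layout. It read 27.0, 55.0 and 31.0 in DM shRNA cells, against 29.9, 56.1 and 42.2 in DM vector cells. The GM signals were 421, 398 and 338 in shRNA cells, against 98.9, 42.7 and 51.4 in vector cells. Again the GM shRNA arrays were above all others and the other 3 groups overlapped, and several of those signals lay near 30. Against vector, shRNA cells differed by -0.14 in DM and 2.40 in GM (SE 0.40). Over the 12 MB arrays, Angpt4 and Tgm5 correlated at r = 0.874, a description of arrays that fall into the same 4 groups.

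P2rx3, the ATP-gated channel subunit, was high in DM vector cells alone of the 4 groups. The brighter of its MB probe sets read 20.5, 32.2 and 16.3 in DM shRNA cells, against 452, 331 and 509 in DM vector cells. Under growth conditions they were 42.6, 6.47 and 19.0 in shRNA cells, against 35.8, 55.4 and 6.32 in vector cells. All 3 DM vector arrays stood above the other 9, which overlapped between groups and of which 4 reached a signal of 30. Its shRNA difference was -3.55 in DM, the lowest of all probe sets, and -0.29 in GM (SE 0.51).

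A further P2rx3 probe set gave a less even picture. It read 70.8, 28.5 and 27.6 in DM shRNA cells, against 329, 30.6 and 241 in DM vector cells, so that DM vector replicate 2 lay among the shRNA arrays. Signals were 21.4, 9.81 and 25.7 in GM shRNA cells, against 77.1, 24.5 and 25.0 in GM vector cells, and all neighbouring groups overlapped. The shRNA differences of this probe set were -1.55 in DM and -0.66 in GM (SE 0.64). The low array, replicate 2, is the one with the fewest signals under 15, and the part of this in its value was not tested.

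Cfap52, the axonemal protein, had the largest change between media in vector cells among the 8 genes and was lower with the shRNA in DM. Its brighter probe set read 221, 202 and 237 in DM shRNA cells, against 2022, 1596 and 1756 in DM vector cells. Its GM signals were 4.36, 12.8 and 3.16 in shRNA cells, against 21.1, 2.50 and 54.0 in vector cells. The DM groups were apart from each other and from both GM groups, which overlapped and were mostly under 30. For this probe set the shRNA difference was -2.94 in DM, the 3rd lowest of all probe sets, and -0.72 in GM (SE 0.41).

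The other Cfap52 probe set had the same order in DM, with 156, 136 and 238 in shRNA cells, against 1212, 1053 and 975 in vector cells, and a difference of -2.55. In GM it read 52.2, 25.8 and 60.8 in shRNA cells, against 10.6, 44.7 and 13.2 in vector cells, a difference of 0.76 whose sign was opposite to that of the brighter probe set. Both GM differences came from overlapping groups with low signals. The probe sets correlated at r = 0.914 over the 12 arrays.

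On MB, the summed signal of skeletal muscle markers was also lower with the shRNA. The summed MB signal of the 19 measured skeletal muscle differentiation genes ran between 49390 and 58210 in DM shRNA cells, against 77040 to 104200 in DM vector cells, and between 5471 and 6744 in GM shRNA cells, against 7208 to 7721 in GM vector cells. In DM, 1 of these 19 genes fell with the shRNA, as 0.389% of all probe sets did: Myom2 fell by 1.49 (adjusted p = 0.000439), and the list's median was -0.48 beside 0.00 over all probe sets. Of the 19 genes 0 were under a signal of 30 in all arrays, and the part of this shift in the Cfap52 and P2rx3 values was not tested. On the MA arrays, 12 of 25 tested skeletal muscle differentiation genes fell with the shRNA in DM and 0 rose, where 6.24% of MA probe sets fell, and the count was 9 to 13 on leaving out 1 array. The largest were Myoz2, a Z-disc protein, which fell by 2.00 ± 0.23 (adjusted p = 4.19e-05), and Myom2, an M-band protein, which fell by 1.44 ± 0.27 (adjusted p = 0.00219). The list's median there was -0.58 beside 0.05 over all MA probe sets. Its 29 measured genes, of which Myh4 and Asb12 were under 30 in all arrays, summed to 33520 to 37240 in DM shRNA cells, against 44440 to 64490 in DM vector cells. In GM 1 of the 25, Ckm, fell with the shRNA (adjusted p = 0.0338), where 2.57% of MA probe sets fell, a call lost without DM shRNA replicate 2, GM shRNA replicates 3 or 4 or any 1 GM vector array (adjusted p of 0.0547 to 0.131).

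Klhl30 had its low signals in GM shRNA cells. It read 2165, 2621 and 2141 in DM shRNA cells, against 3431, 2927 and 4470.2 in DM vector cells. GM gave 448, 434 and 657 in shRNA cells, against 2818, 2596 and 2749 in vector cells. The 3 GM shRNA arrays were below all 9 others, and DM shRNA cells overlapped GM vector cells while lying below DM vector cells. The shRNA difference was -0.63 in DM and -2.40 in GM (SE 0.18), the lowest of all probe sets in GM. Its signal ran against those of Angpt4 (r = -0.948) and Tgm5 (r = -0.915) over the same 12 arrays.

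Mss51, the mitochondrial MYND protein, was higher in DM and higher still in DM with the shRNA. It read 589, 809.5 and 940.0 in DM shRNA cells, against 198, 80.7 and 128 in DM vector cells. In GM the signals were 30.8, 20.9 and 21.1 in shRNA cells, against 10.03, 27.3 and 21.8 in vector cells. The DM groups did not overlap each other or GM, and the GM groups overlapped near or under 30. Between shRNA and vector cells it differed by 2.45 in DM and 0.20 in GM (SE 0.39), opposite in direction in DM to that of Cfap52, although both genes were higher in DM.

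The nuclear protein gene Aff3 was the one of the 8 whose brighter probe set was lower with the shRNA in DM and higher with it in GM, without overlap in either medium; 6.55% of all probe sets were lower without overlap in DM and 6.90% were higher in GM. It read 482, 488 and 704 in DM shRNA cells, against 1016, 901 and 928 in DM vector cells. Its signals in GM were 232, 129 and 137 in shRNA cells, against 13.8, 16.1 and 41.8 in vector cells. All 4 groups were apart, DM vector cells highest and GM vector cells lowest, so the shRNA groups lay between them. The shRNA difference was -0.77 in DM and 2.24 in GM (SE 0.30).

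A further Aff3 probe set disagreed. It read 261, 279.7 and 221 in DM shRNA cells, against 311, 367 and 271 in DM vector cells. In growth medium this probe set read 70.7, 90.6 and 187 in shRNA cells, against 266, 143 and 282 in vector cells. Neighbouring groups overlapped throughout, and the GM difference of -0.95 had the opposite sign to the 2.24 of the brighter probe set, with which it correlated at r = 0.332. Which transcripts each probe set reads is not given in the sources used here.

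Rtl3, the retrotransposon-derived gene, was higher with the shRNA and higher in DM. It read 1328, 1223 and 1169 in DM shRNA cells, against 237, 167 and 262 in DM vector cells. In GM it read 309.8, 214 and 319.6 in shRNA cells, against 32.3, 29.4 and 35.7 in vector cells. DM shRNA cells were above all other groups, GM vector cells were below them, and GM shRNA cells overlapped DM vector cells between them. The shRNA difference was 2.43 in DM and 2.62 in GM (SE 0.25), the highest of all probe sets in GM.

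**Figure D2:**
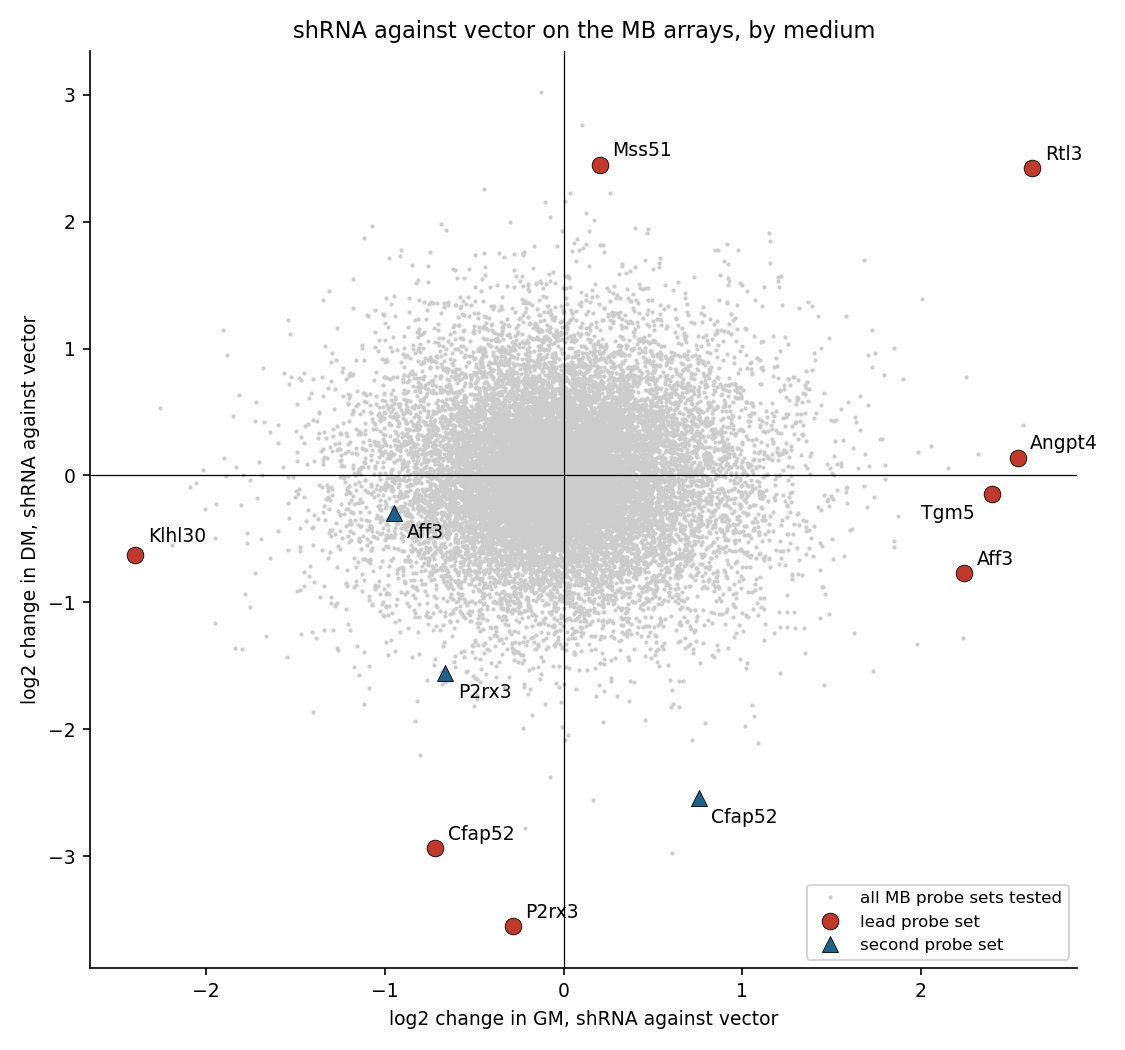
Log2 difference of shRNA against vector on MB arrays in GM (horizontal axis) and in DM (vertical axis) for the 11 probe sets (circles for the brightest of a gene, triangles for a further one) over all tested probe sets in grey. Rtl3 lies far out on both axes at 2.62 in GM and 2.43 in DM, Aff3 (brighter probe set), Angpt4 and Tgm5 lie to the right, Klhl30 to the left at -2.40, Mss51 at the top, and P2rx3 and Cfap52 at the bottom.

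The medium was the comparison the choice of genes did not use, although it rests on the same 12 arrays, so a gene chosen for 1 high or low group can differ between media through that group. In vector cells, 5 of the 8 genes rose in DM over GM by their brighter probe set (limma, adjusted p under 0.05), where 4.21% of all tested MB probe sets did. Cfap52 rose by 5.68 ± 0.41 (adjusted p = 1.32e-08) and Aff3 by 4.70 ± 0.30 (adjusted p = 2.22e-09). P2rx3 rose by 3.37 ± 0.51 (adjusted p = 0.000158), Rtl3 by 2.30 ± 0.25 (adjusted p = 2.59e-06) and Mss51 by 2.07 ± 0.39 (adjusted p = 0.00136). The P2rx3 and Cfap52 rises come through the DM vector arrays, the group in which both stood out in the choice. Those of Aff3 and Rtl3 come through the GM vector arrays, the low group in their shRNA differences in GM. All 5 rises share the vector arrays with the choice, so none of their p-values is independent of it. Klhl30 (0.38 ± 0.18), Angpt4 (0.11 ± 0.39) and Tgm5 (-0.42 ± 0.40) did not pass, with adjusted p of 0.243, 0.928 and 0.643.

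With the shRNA, 5 genes rose in DM over GM, where 2.27% of all probe sets did, and 2 fell, where 2.57% did. Mss51 rose by 4.32 ± 0.39 (adjusted p = 4.95e-07) and Cfap52 by 3.45 ± 0.41 (adjusted p = 1.77e-05). Klhl30 rose by 2.16 ± 0.18 (adjusted p = 2.23e-07), Rtl3 by 2.10 ± 0.25 (adjusted p = 1.44e-05) and Aff3 by 1.69 ± 0.30 (adjusted p = 0.00129). Tgm5 fell by 2.96 ± 0.40 (adjusted p = 8.03e-05) and Angpt4 fell by 2.29 ± 0.39 (adjusted p = 0.000975). The differences of Klhl30, Tgm5 and Angpt4 come through the GM shRNA arrays, the group in which these genes stood out in the choice. Those of Mss51 and Rtl3 come through the DM shRNA arrays, where both stood high. All differences in shRNA cells share the shRNA arrays with the choice, so none of their p-values is independent of it. P2rx3, at 0.10 ± 0.51, did not pass (adjusted p = 0.973). Whether the medium response differed between shRNA and vector cells was not tested on MB arrays, because that difference is the one between the shRNA changes the genes were chosen by.

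Of the further probe sets, that of Cfap52 rose by 4.96 ± 0.38 in vector cells (adjusted p = 2.54e-08) and by 1.66 ± 0.38 in shRNA cells (adjusted p = 0.0115), and the call in shRNA cells was lost without DM shRNA replicate 3 (adjusted p = 0.0728) or GM shRNA replicate 2 (adjusted p = 0.0644). That of P2rx3 differed by 1.60 ± 0.64 in vector cells and did not pass (adjusted p = 0.152), but passed without DM vector replicate 2, at 2.50 (adjusted p = 0.00678). That of Aff3 differed by 0.48 ± 0.32 in vector cells (adjusted p = 0.469) and by 1.13 ± 0.32 in shRNA cells (adjusted p = 0.0530), and the shRNA value passed without GM shRNA replicate 3 (adjusted p = 0.00974) or GM vector replicate 2 (adjusted p = 0.0374). In every comparison called above, the arrays of the media did not overlap (10.8% of all probe sets were higher in DM without overlap in vector cells and 10.8% in shRNA cells, and 10.2% were lower in shRNA cells), and the exact two-sided permutation p was 0.1, the smallest that 3 against 3 arrays allow.

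**Figure D3:**
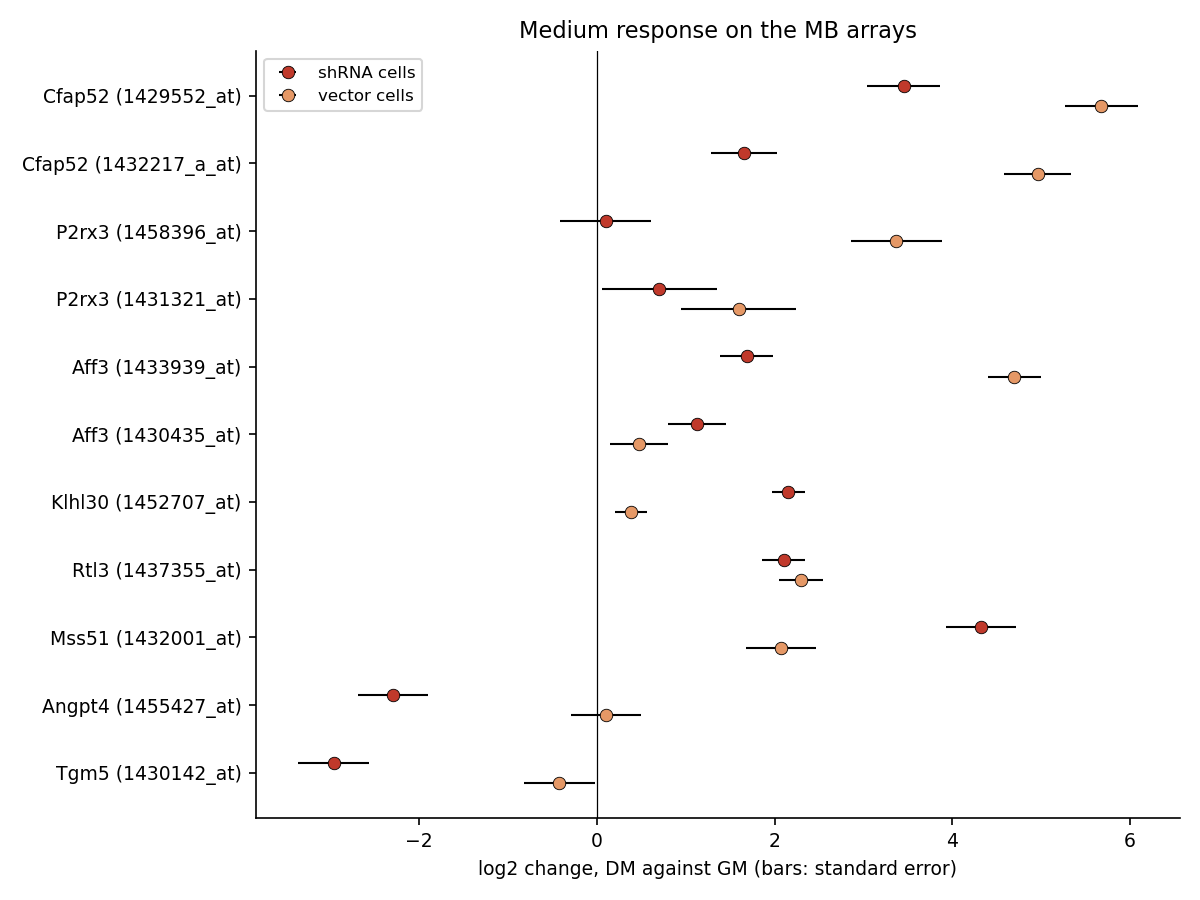
Log2 difference of DM against GM on MB arrays, with bars of 1 SE, for the 11 probe sets in shRNA cells and in vector cells. The brighter probe sets of Cfap52 and Aff3 lie further right in vector cells (5.68 and 4.70), Mss51 and Klhl30 in shRNA cells (4.32 and 2.16), Rtl3 is nearly level at 2.10 and 2.30, and Angpt4 and Tgm5 lie left of 0 in shRNA cells.

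The MA arrays, which the choice did not use, read P2rx3 and Angpt4 with other probe sets; the labels do not say whether MA and MB arrays shared RNA extracts. On this design the GM replicates are numbered 2, 3 and 4 for shRNA cells but 1, 3 and 4 for vector cells. P2rx3 read 3.44, 3.02 and 3.67 in DM shRNA cells, against 129.9, 77.1 and 100.1 in DM vector cells. In GM it read 2.27, 3.47 and 2.06 in shRNA cells, against 2.64, 2.33 and 2.35 in vector cells. The 3 DM vector arrays were again the high ones, and the other 9 arrays were between 2.06 and 3.67. With the shRNA in DM, P2rx3 fell by 2.65 ± 0.22 (adjusted p = 2.40e-06), the 2nd lowest of the 14367 tested MA probe sets, of which 6.24% fell, and it rose in DM over GM in vector cells by 2.73 ± 0.22 (adjusted p = 1.05e-07), where 23.9% of probe sets rose. The probe set passed the filter on low signals through the DM vector arrays alone, so it had to differ between groups; without that filter the adjusted p was 1.52e-06 for the DM shRNA change and 3.62e-08 for the medium change in vector cells. The muscle genes that fell in DM on the same arrays are given above, and their part in the P2rx3 value was not tested. In GM the shRNA difference was 0.01 (adjusted p = 0.986), and in shRNA cells the DM difference was 0.06 (adjusted p = 0.854).

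Angpt4 was dim on MA. It read 26.1, 35.0 and 34.1 in DM shRNA cells, against 29.8, 37.8 and 59.1 in DM vector cells. In GM it read 48.5, 39.5 and 67.7 in shRNA cells, against 15.2, 21.2 and 16.2 in vector cells. GM vector cells were below all other groups, which overlapped in order. With the shRNA in GM it rose by 1.02 ± 0.22 (adjusted p = 0.0128), where 3.99% of MA probe sets rose; the call was lost without GM shRNA replicate 4 (adjusted p = 0.0687) or GM vector replicate 1 (adjusted p = 0.0547). Its DM shRNA difference was -0.26 (adjusted p = 0.472). In vector cells it rose in DM over GM by 0.79 ± 0.22 (adjusted p = 0.00811), where the MB probe set gave 0.11, and in shRNA cells the difference was -0.50 ± 0.22 (adjusted p = 0.0952), where the MB probe set fell by 2.29.

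**Figure D4:**
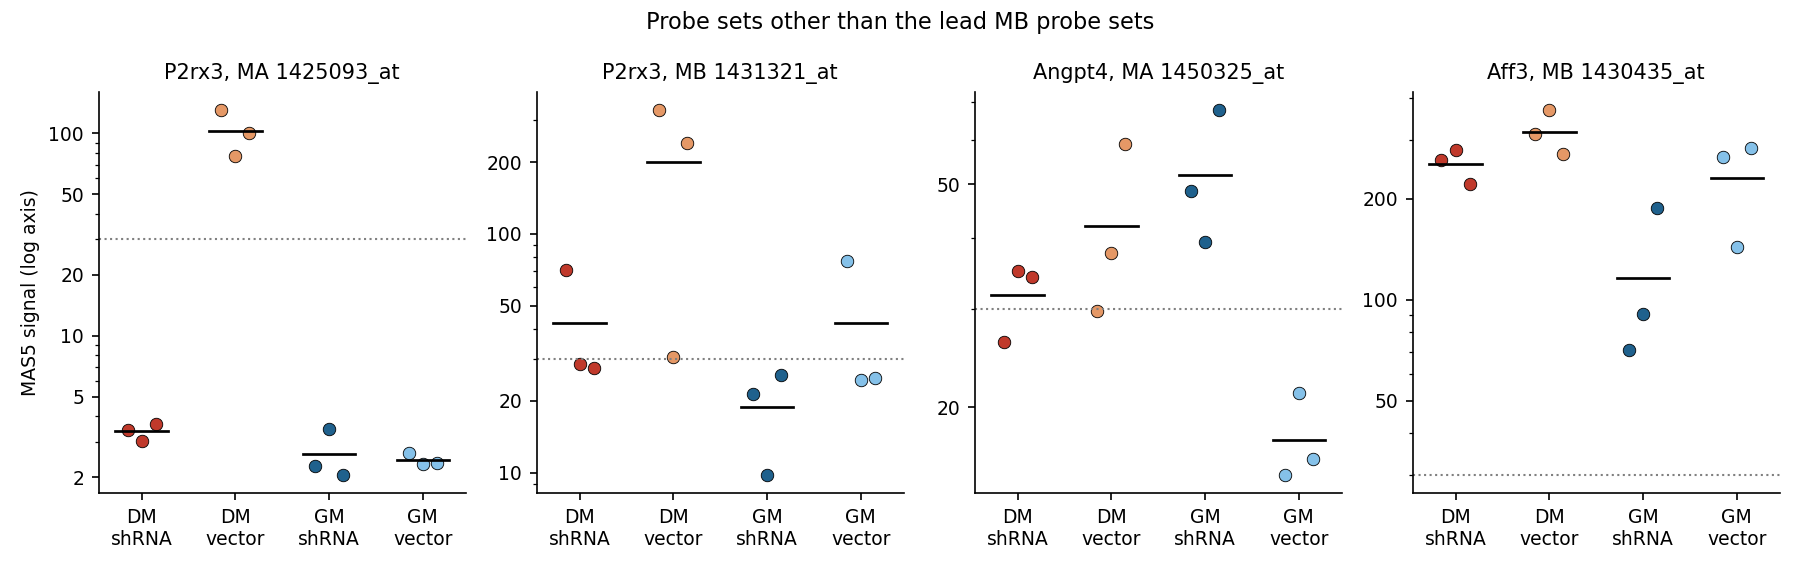
MAS5 signal (log axis) of the P2rx3 and Angpt4 probe sets on MA arrays and of further MB probe sets of P2rx3 and Aff3, 1 point per array, bars at group means and a dotted line at a signal of 30. On MA, P2rx3 reads 77.1 to 129.9 in DM vector cells and 2.06 to 3.67 in every other array, and Angpt4 is lowest in GM vector cells.

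Among other named genes of at least average signal on MB, the 3 whose log2 signals correlated best with each gene over the 12 arrays were taken as a description. For Rtl3 these were Igfbp3 (r = 0.958), Pik3r3 (r = 0.945) and Mxra7 (r = 0.943). Cfap52 was closest to Adm2 (r = 0.987), Cox6a2 (r = 0.978), a cytochrome oxidase subunit of heart and skeletal muscle, and Cacnb1 (r = 0.975), a subunit of the muscle calcium channel. Aff3 was closest to Dip2c (r = 0.971), and Mss51 to Pxdn (r = 0.981), a peroxidase of the extracellular matrix. P2rx3 was closest to Gyg (r = 0.951), the glycogen primer glycogenin, and Klhl30 to E2f2 (r = 0.929), a cell cycle transcription factor. Angpt4 was closest to Shox2 (r = 0.932), and Tgm5 to Wdyhv1 (r = 0.925). All these correlations share the 12 arrays and their 4 groups.

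Genes related to the 8 by family or structure were read on MB as lists, described by their counts and medians. Of 4 other muscle kelch proteins tested on MB, Klhl40 and Klhl41, muscle proteins whose loss in humans causes nemaline myopathy, rose in DM in vector cells (by 4.35 ± 0.18 and 6.06 ± 0.32) and in shRNA cells (by 4.66 and 5.79); the list's median was 2.36 in vector cells beside -0.01 over all probe sets. With the shRNA in GM, where Klhl30 was lower by 2.40, Klhl40 fell by 0.91 ± 0.18 (adjusted p = 0.0336), as 0.0673% of all probe sets fell. That call was lost without any 1 of the DM shRNA or GM vector arrays and without GM shRNA replicate 1 or 2, with adjusted p of 0.0537 to 0.176.

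Of 9 other MYND proteins, 1 was called higher and 2 lower in DM in vector cells, where 9.21% of all probe sets passed in either direction, and 2 higher and 1 lower in shRNA cells, where 4.85% did. One of the lower calls in vector cells, Zmynd19 (-0.83 ± 0.24, adjusted p = 0.0321), was lost without DM vector replicates 1 or 2 or any 1 GM vector array (adjusted p of 0.0512 to 0.127), and on MA its probe set rose by 0.63 ± 0.17 (adjusted p = 0.00726). Smyd1, a muscle methyltransferase, rose in DM by 5.82 ± 0.41 in vector cells and by 5.40 in shRNA cells, and Smyd4 fell by 1.95 ± 0.16 in vector cells and by 1.81 in shRNA cells. Smyd4 rose with the shRNA in DM by 0.96 ± 0.16 (adjusted p = 0.00426), where 0.782% of all probe sets rose and Mss51 was higher by 2.45; the median of the 9 was 0.05 beside 0.00 over all. Of 15 tested motile cilium genes other than Cfap52, Spag17 rose in DM in vector cells (by 1.74 ± 0.51, adjusted p = 0.0400), a call lost without DM shRNA replicate 2, DM vector replicates 2 or 3, GM shRNA replicate 3 or GM vector replicates 1 or 3 (adjusted p of 0.0506 to 0.160). None of the 15 passed with the shRNA in DM, where 1.17% of all probe sets did, and 1 of the 15 had an unadjusted p under 0.05. Their median there was -0.18 beside 0.00 over all probe sets and -2.94 for Cfap52.

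Angpt1, the main activating ligand of Tie2, fell by 2.41 ± 0.37 in DM in vector cells (adjusted p = 0.000165), where Angpt4 differed by 0.11. It rose with the shRNA in DM by 1.76 ± 0.37 (adjusted p = 0.0212), a call lost without any 1 of the 3 DM shRNA arrays (adjusted p of 0.0546 to 0.109). The median of the 3 other genes of this list was -0.50 in vector cells beside -0.01 over all. In shRNA cells, where Angpt4 fell by 2.29, the median was -0.88 beside 0.02 over all. There Angptl1 was called lower (limma, adjusted p = 0.0272), as 2.57% of all probe sets were. The Angptl1 call was lost without DM shRNA replicate 1 or GM shRNA replicates 2 or 3 (adjusted p of 0.115 to 0.139). Of 3 other P2X receptors, P2rx7 fell by 1.09 ± 0.18 in DM in shRNA cells (adjusted p = 0.000513), and their median was -0.14 beside 0.02 over all. Of 9 genes of the AF4 family and the super elongation complex, Ccnt1, the cyclin of the elongation kinase, rose in DM in vector cells by 0.86 ± 0.17 (adjusted p = 0.00219), and Cdk9, the kinase itself, fell by 1.23 ± 0.32 (adjusted p = 0.0161), the Cdk9 call being lost without DM vector replicate 2 or GM vector replicates 1 or 3 (adjusted p of 0.0564 to 0.0959); their median was 0.09. None of the 3 other transglutaminases and not Rtl5, the 1 other Rtl gene, passed in any of the 4 comparisons on MB, and none of them had an unadjusted p under 0.05. Of all MB probe sets, 0.275% to 9.21% passed in these comparisons, so 0 of so few genes says little.

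On MA, the same 8 lists of related genes had 34 tested genes, and several passed there. With the shRNA, 3 rose and 2 fell in DM, where 10.7% and 6.24% of MA probe sets did. In GM 2 rose and 0 fell, where 3.99% and 2.57% did. In DM over GM, 8 rose and 11 fell in vector cells, where 23.9% and 25.4% of MA probe sets did, and 8 rose and 5 fell in shRNA cells, where 16.3% and 17.5% did. Rtl8c, of the same family as Rtl3, rose with the shRNA by 0.86 ± 0.25 in DM (adjusted p = 0.0270) and by 1.08 ± 0.25 in GM (adjusted p = 0.0174). Its mean signal was 33.7 in DM shRNA cells, against 12.4 in DM vector cells, and 61.1 in GM shRNA cells, against 21.5 in GM vector cells. The DM call was lost without DM shRNA replicates 2 or 3 or DM vector replicates 1 or 3 (adjusted p of 0.0559 to 0.105), and the GM call without GM shRNA replicates 2 or 3 or GM vector replicates 1 or 3 (adjusted p of 0.0533 to 0.0916). Tgm2, the tissue transglutaminase, rose in DM in shRNA cells by 1.24 ± 0.18 (adjusted p = 9.21e-05). With the shRNA in DM, Smyd1 fell by 0.84 ± 0.18 (adjusted p = 0.00467) and Angptl6 fell by 0.89 ± 0.14 (adjusted p = 0.000631).

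Markers of cell types in which some of these genes are best known were read on both designs. On MA, 7 of 10 keratinocyte genes, including Krt5 and Ivl, were under a signal of 30 in all 12 arrays, and the 10 summed to 209 to 253 in GM shRNA cells, where Tgm5 was high, against 251 to 312 in GM vector cells. Of 7 sensory neuron genes, 5 were under 30 in all arrays, among them Scn10a, and their sum was 97.9 to 107.5 in DM shRNA cells, against 79.5 to 114 in DM vector cells. For endothelial cells 6 of 10 genes were under 30 throughout, among them Pecam1 and the receptor gene Tek, and their sum was 161 to 195 in GM shRNA cells, against 152 to 213 in GM vector cells. Lymphocyte genes were under 30 throughout for 4 of 9, with sums of 191 to 262 in GM shRNA cells, against 223 to 301 in GM vector cells. Of 7 macrophage genes 1 was, with sums of 295 to 387 in GM shRNA cells, against 222 to 301 in GM vector cells. Of the 14 genes of these lists tested on MA, 0 passed with the shRNA in either medium (limma), with 2 at an unadjusted p under 0.05 in DM and 2 in GM. Of all MA probe sets, 16.9% passed in DM and 6.56% in GM, so 0 of so few genes says little. Between media in vector cells, 2 rose and 3 fell, where 23.9% and 25.4% of MA probe sets did. In shRNA cells 1 rose and 3 fell, where 16.3% and 17.5% did. Krt14, a basal keratin, fell in DM by 2.98 ± 0.19 in vector cells (adjusted p = 9.46e-09) and by 2.12 in shRNA cells, while Krt10 rose by 1.07 and 0.94. The neuronal tubulin gene Tubb3 fell by 1.11 in vector cells and by 0.55 in shRNA cells. Of 5 macrophage genes tested, Cd14 fell by 0.85 and 0.70, and Adgre1 rose by 0.75 in vector cells. The calls of Tubb3 and Cd14 in shRNA cells and of Adgre1 were lost on leaving out certain single arrays (adjusted p of 0.0571 to 0.102). On MB, where the endothelial list has no probe set, none of the other lists had a gene that passed in any of the 4 comparisons, and 1 keratinocyte gene had an unadjusted p under 0.05 between media in vector cells. Of all MB probe sets, 0.275% to 9.21% passed in these comparisons.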

How the data were processed

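Total RNA of C2C12 cells was hybridised to 1-colour arrays of 2 designs, MB and MA, with 12 arrays each in 4 groups of 3, taken from the sample titles. The deposited values are linear intensity, 1 per probe set. MAS5, named in the submitters' processing notes, made them; version, settings and detection calls are not given here. Judged by the values, every array had been scaled to a trimmed mean (2% off each end) of about 150.1 on MA and 150.0 on MB. Arrays give no molecule counts, so their number limits the precision.

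From the deposited intensity, log2(signal + 15) was taken, without further normalization. Probe sets reaching a signal of 30 in at least 3 of the 12 arrays of a design were tested, 19303 of 22575 on MB and 14367 of 22690 on MA; all 11 MB and both MA probe sets of the 8 genes passed. The 12 arrays of each design entered 1 model of 4 group means (limma 3.58.1 under R 4.3.3, 8 residual degrees of freedom). eBayes used a mean-variance trend, and p-values were two-sided, adjusted by Benjamini-Hochberg over all tested probe sets and called at 0.05. The median residual SD was 0.523 on MB and 0.214 on MA. In data simulated for shRNA against vector in DM, 14.9%, 58.2% and 100% of MB probe sets changed by 1, 2 and 4 on the log2 scale were recovered. On MA 70.1%, 97% and 98.5% were recovered. Of the calls in these simulated data, 6.5% were false on MB and 2.21% on MA.

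Probe sets were named from the platform annotation where it gives 1 symbol (14661 on MB; 245 with several were not used for names). The brightest probe set of a gene leads, and for the 8 genes the others are given too. All 8 genes are named; further names are the 3 best correlated genes and, per list, the genes that passed with the largest change. Other list genes, such as Zmynd19, Ckm, Cd14 and Adgre1, were named after their values were seen. The 8 genes and all lists were chosen with earlier results of these data known. Alternatives tried were pseudocounts of 5 and 50, no filter, quantile normalization, no trend, only the arrays compared, a replicate block and leaving out each array. Promoters were searched for the motifs named, on both strands.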

Additional observations from a re-analysis of the deposited data

Results flagged for a closer look

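On MA arrays, the change of P2rx3 with the shRNA differed between the media. The change in DM minus that in GM was -2.66 ± 0.31 (limma interaction term, adjusted p = 0.000108), where 9.95% of MA probe sets passed this test; P2rx3 passed the filter on low signals through the DM vector arrays alone, so it had to differ between groups, and without the filter the term was -2.66 ± 0.24 (adjusted p = 4.99e-05).

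The change of Angpt4 with the shRNA also differed between media on MA arrays, by -1.29 ± 0.31 for DM minus GM (adjusted p = 0.0176), with signals from 15.2 to 67.7 over the 12 arrays. Without the filter the same limma term had an adjusted p of 0.0349. The GM shRNA call that enters it was lost on leaving out either of 2 single arrays (adjusted p up to 0.0687). GM vector cells were the low group on MA, whereas on MB GM shRNA cells were the high group.

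On MB arrays, the brighter Aff3 probe set was lower with the shRNA in every DM array (-0.77) and higher in every GM array (2.24). This difference between media was not tested, because the gene was chosen by it, and the further Aff3 probe set gave -0.30 in DM and -0.95 in GM.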

How the results depend on the processing

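The calls of the 8 genes between DM and GM on MB arrays (5 rose in vector cells, 5 rose and 2 fell in shRNA cells) were the same in number under every alternative run and on leaving out each array, and no result reversed. On MA, 3 to 4 of 8 comparisons passed over the left-out arrays. Counts over all MB probe sets moved more. With the shRNA in DM, 226 passed in the reported fit, 19 without a mean-variance trend, 101 with only the arrays compared and 125 to 229 over the left-out arrays, the low counts being 126, 125 and 126 without DM shRNA replicates 1, 2 and 3. In GM, 53 passed in the reported fit, 103 after quantile normalization, 9 without a trend and 14 to 71 over the left-out arrays, the low counts being 17, 17 and 26 without GM shRNA replicates 1, 2 and 3 and 14 and 19 without GM vector replicates 1 and 3. DM against GM in shRNA cells gave 936 calls and 527 without a trend. The cause was not tested. The pseudocount moved sizes of the shRNA differences, P2rx3 in DM to -3.98 with 5 and -2.71 with 50, and Rtl3 in GM to 2.91 and 1.99. Deviations of MB arrays with the same replicate number correlated at -0.0391 to 0.0698 over 18 pairs, so the numbers were not taken to pair samples; with the replicate block, 1775 and 942 probe sets passed between media in vector and shRNA cells, 197 and 47 with the shRNA in DM and GM, and the calls of the 8 genes stayed 5, and 5 and 2. On MA these correlations were -0.139 to 0.293 over 13 pairs, 6 of them over 0.1, against 0 of the 18 pairs on MB. The reported MA fit has no replicate term, and whether same-numbered MA arrays belong together was not tested. With the block the MA calls stayed 4, with P2rx3 at -2.65 (adjusted p = 2.06e-05) for the shRNA in DM and 2.76 (adjusted p = 2.96e-06) between media in vector cells, and Angpt4 at 0.95 (adjusted p = 0.0321) for the shRNA in GM and 0.85 (adjusted p = 0.0101) between media in vector cells (limma). Signals near 30 limit P2rx3, Tgm5, Mss51, Cfap52 and Angpt4 in their low groups, where groups could not be ordered. The GM vector signals of Rtl3 (29.4 to 35.7) and of the brighter Aff3 probe set (13.8 to 41.8) were also near or under 30. This limits the sizes of the Rtl3 and Aff3 changes taken against that group.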
